A study of Rattus norvegicus with 20 samples.

Results

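The genes examined here carry out or control the breakdown of the branched-chain amino acids (BCAA) leucine, isoleucine and valine. They are Bcat2, Bckdha, Bckdhb, Dbt, Bckdk, Ppm1k, Ivd, Mccc1, Hibadh and Hibch, taken by symbol from the table of raw counts. All 10 had a row among the 32495 rows with a gene name, and all 10 passed the filter on low counts with 11716 genes in total. The samples were gastrocnemius muscle of female Fischer 344 rats, and every rat carried a Ward colorectal carcinoma. TUMOUR STD received no chemotherapy and ate the standard diet. CHEMO STD received repeated cycles of CPT-11 (irinotecan) followed by 5-FU (5-fluorouracil) on that same diet. CHEMO FO received the same drugs and changed to a diet with fish oil, a source of EPA and DHA, when chemotherapy started. There was no group without a tumour, so the tumour itself cannot be compared. The labels give no age.

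BCAA are unusual among amino acids in that their first breakdown step takes place largely outside the liver, with skeletal muscle as a main site. The mitochondrial transaminase Bcat2 moves the amino group to 2-oxoglutarate, and the keto acids that result enter the branched-chain keto acid dehydrogenase complex, whose step is irreversible. Bckdha and Bckdhb encode the subunits of its decarboxylase and Dbt the transacylase core. The kinase Bckdk phosphorylates the complex and turns it off, and the phosphatase Ppm1k reverses this. Beyond the complex the routes separate. Ivd and Mccc1 act on the leucine skeleton, and Hibch and Hibadh on that of valine. Control of the complex through phosphorylation is not visible in transcript levels.

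Depth on named genes was 5422118 to 10857477 counts per library in the 5 TUMOUR STD libraries (median 6200550). It was 3020821 to 10516783 in the 7 libraries of CHEMO STD (median 4944773) and 3035841 to 9119394 in the 8 of CHEMO FO (median 4634605). The 10 genes together took 2329 to 8706 counts per library. Replicates 1 and 2 of CHEMO STD differed least of all pairs within a group, with a median chi-square of 0.921 per gene. The remaining 58 within-group pairs gave 1.19 to 18.8. This measure grows with depth, and 0.921 is more than sampling noise alone would give. The library names of replicates 1 and 2 share a stem. For this and their likeness they were summed and counted as 1 sample (named 1-2), which left 19 samples. Markers of skeletal muscle fibres (8 genes) summed to between 130050 and 253640 CPM (counts scaled to a common library size). CHEMO FO 18 had the lowest of these sums and the lowest summed level of 11 mitochondrial genes, 7124 CPM against a group median of 10463. In TUMOUR STD 10, 7 keratinocyte genes summed to 501 CPM against 4.85 to 7.10 in the rest of its group, and CHEMO FO 16 reached 109. Where CHEMO FO 18 or TUMOUR STD 10 decided whether a named gene passed the test, its value without that sample is given.

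Sequences upstream of 4 of the genes are shown because Dbt, Hibadh and Hibch varied together from sample to sample while Bckdk did not follow them, as described further on. Each is the 300 bases around the start of the gene in RefSeq on build GRCr8, with 250 before it and 50 after. The counts themselves were made on the older Rnor 6 build. Capitals mark the GC box (GGGCGG, on either strand) and the CCAAT box (CCAAT, on either strand), which do not overlap each other.
Dbt (chr2:207166410-207166709, plus strand): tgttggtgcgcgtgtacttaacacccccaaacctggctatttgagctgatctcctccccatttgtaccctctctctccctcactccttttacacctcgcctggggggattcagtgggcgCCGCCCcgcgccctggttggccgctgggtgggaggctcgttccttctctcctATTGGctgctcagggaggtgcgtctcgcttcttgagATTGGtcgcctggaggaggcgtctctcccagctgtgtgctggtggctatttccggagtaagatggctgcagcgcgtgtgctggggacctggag
Hibadh (chr4:83077770-83078069, minus strand): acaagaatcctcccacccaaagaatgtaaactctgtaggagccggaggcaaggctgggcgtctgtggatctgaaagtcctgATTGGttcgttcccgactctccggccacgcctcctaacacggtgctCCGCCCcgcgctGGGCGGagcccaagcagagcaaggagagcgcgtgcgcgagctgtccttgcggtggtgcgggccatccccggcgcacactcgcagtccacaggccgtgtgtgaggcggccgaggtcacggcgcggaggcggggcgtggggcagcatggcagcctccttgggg
Hibch (chr9:56161747-56162046, minus strand): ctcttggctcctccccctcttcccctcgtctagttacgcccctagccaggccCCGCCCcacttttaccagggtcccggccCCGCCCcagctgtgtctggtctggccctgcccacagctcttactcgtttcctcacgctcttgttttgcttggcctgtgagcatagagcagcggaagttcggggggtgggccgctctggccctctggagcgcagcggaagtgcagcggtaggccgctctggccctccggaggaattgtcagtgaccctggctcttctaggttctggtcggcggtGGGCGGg
Bckdk (chr1:191945559-191945858, plus strand): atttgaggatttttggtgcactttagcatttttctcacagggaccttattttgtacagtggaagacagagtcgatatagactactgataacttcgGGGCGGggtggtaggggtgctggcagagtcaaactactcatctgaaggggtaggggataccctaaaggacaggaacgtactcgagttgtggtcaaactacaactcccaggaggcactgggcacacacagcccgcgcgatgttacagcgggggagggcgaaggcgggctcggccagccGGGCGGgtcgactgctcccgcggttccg
Dbt carried 1 GC box and 2 CCAAT boxes, Hibadh 2 and 1, Hibch 3 and 0, and Bckdk 2 and 0. Sequences were found for 8 of the 10 genes. A GC box stood in 8 of 8, against 61.9% of the promoters of the other 9850 tested genes with one and 33.1% of all 33469 promoters. A CCAAT box stood in 5 of 8, against 37.0% and 37.5%. The letters CACGTG (an E-box), AAGGTCA and TATAAA were in none of the 8, and in 9.22%, 2.83% and 6.94% of the promoters of other tested genes. The GC content was 54.7% to 67.0%, against a median of 61.0% in those promoters. A match of letters is a description of the window and does not show that a factor binds there.

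None of the 10 genes met the thresholds of an unadjusted p below 0.05 and a fold change of at least 1.5 in edgeR's quasi-likelihood test, in any of the 3 comparisons. Among all genes tested, the same thresholds called 2.38% in CHEMO STD versus TUMOUR STD, 1.66% in CHEMO FO versus CHEMO STD and 3.60% in CHEMO FO versus TUMOUR STD. On p alone, Dbt was the only one of the 10 that passed, and only in CHEMO STD versus TUMOUR STD. The corresponding shares of all genes were 6.50%, 4.51% and 9.04%. For each of the 10 genes the sample values of every pair of groups overlapped, and groups without overlap were seen for 0.495%, 0.0683% and 0.324% of all genes. No gene in the whole table passed a Benjamini-Hochberg adjusted p of 0.05 in edgeR, where 762, 528 and 1059 genes had an unadjusted p below 0.05. DESeq2 passed 0, 0 and 11 genes after adjustment, and the smallest adjusted p of the 10 genes was 0.583 in edgeR and 0.574 in DESeq2. Nothing in the sources names the animal behind each library, so these p values measure the spread between the samples as deposited.

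**Figure D1:**
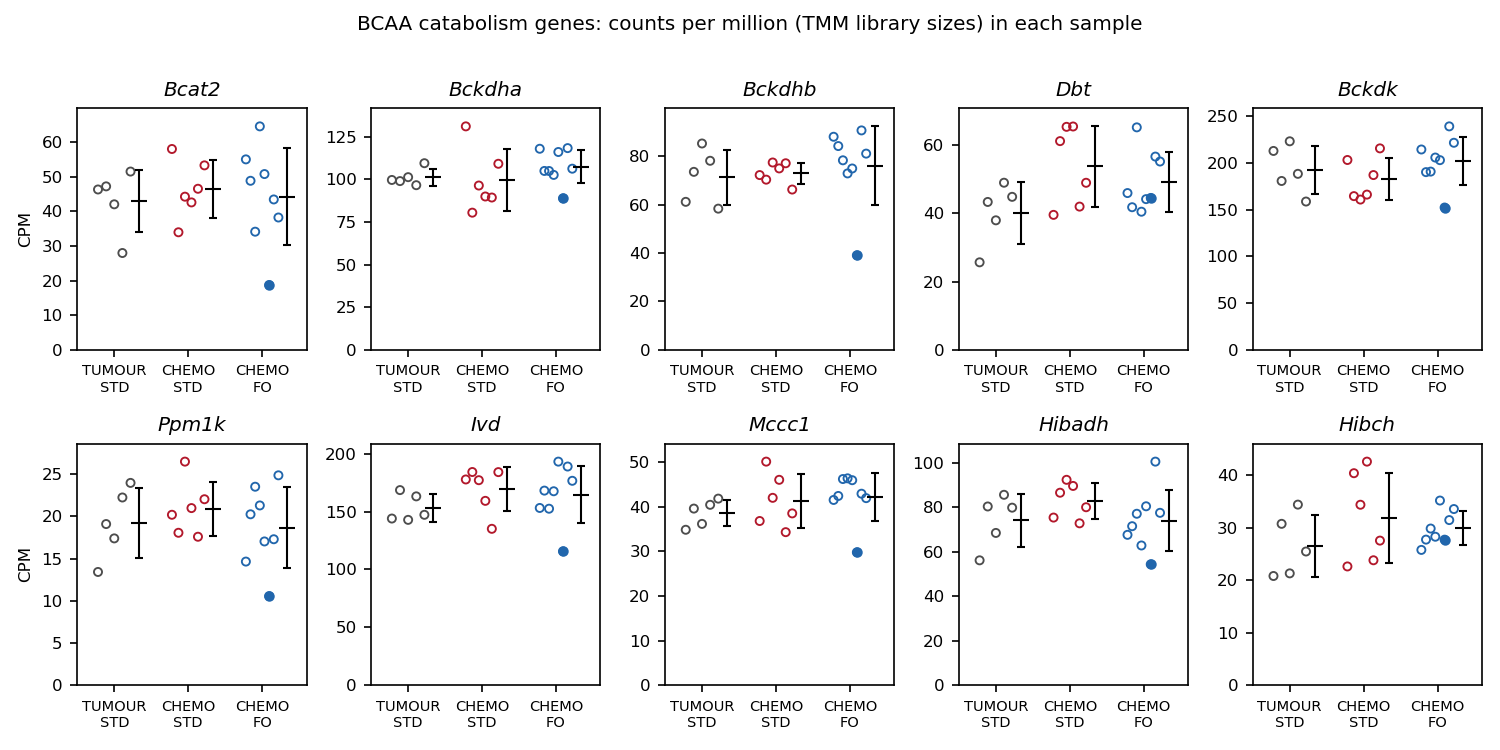
Level of each BCAA catabolism gene (y axis, CPM on TMM library sizes) in every sample of the 3 groups (x axis), with the mean and SD beside the points; the filled point is CHEMO FO 18. The groups overlap for every gene, and CHEMO FO 18 is the lowest of its group for 8 of the 10.

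Bcat2, the transaminase at the head of the pathway, was measured at 28.0, 51.5, 46.3, 47.2 and 42.1 CPM in TUMOUR STD 8 to 12. Its lowest, median and highest values were 34.0, 45.4 and 58.0 in CHEMO STD and 18.7, 46.2 and 64.6 in CHEMO FO. The medians lay within a few CPM of each other, while TUMOUR STD 8 and CHEMO FO 18 fell well below their groups. The log2 fold change was 0.11 ± 0.22 (SE) in CHEMO STD versus TUMOUR STD and -0.09 ± 0.20 in CHEMO FO versus CHEMO STD. Bcat2 had the widest spread of the 10 genes, with a coefficient of variation within groups of 25.5% against a median of 24.5% over all genes.

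The decarboxylase subunits were steadier. Bckdha was measured at 96.6, 110, 99.7, 99.0 and 101 CPM in the 5 TUMOUR STD samples. It ran from 80.5 through a median of 93.2 to 131 in CHEMO STD and from 88.9 through 106 to 118 in CHEMO FO. The highest value of all 19 samples belonged to CHEMO STD 1-2, and the other 5 samples of that group lay between 80.5 and 109. Its log2 fold change was -0.02 ± 0.12 with chemotherapy and 0.11 ± 0.11 with fish oil. Only 5.07% of tested genes varied less within groups than Bckdha, at 12.0%. Bckdhb, the partner subunit, averaged 71.3 ± 11.4 (SD, n = 5), 73.1 ± 4.33 (n = 6) and 76.2 ± 16.2 (n = 8) CPM in TUMOUR STD, CHEMO STD and CHEMO FO. CHEMO FO 18 was at 39.1 while the other 7 samples of its group lay between 73.0 and 90.8.

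Dbt, the transacylase core of the complex, had the highest fold change of the 10 genes with chemotherapy. TUMOUR STD 8 to 12 gave 49.0, 44.9, 25.6, 43.4 and 38.0 CPM. The 6 CHEMO STD samples gave 39.6 (1-2), 61.2 (3), 65.4 (4), 65.5 (5), 42.0 (6) and 49.0 (7). Replicates 3, 4 and 5 therefore stood above every TUMOUR STD sample, and the remaining 3 lay within the range of that group. In CHEMO FO the values ran from 40.5 through a median of 45.2 to 65.2. The means were 40.2 ± 9.02 (SD, n = 5), 53.8 ± 11.8 (n = 6) and 49.3 ± 8.76 (n = 8).

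With chemotherapy Dbt was 1.34-fold higher (log2 fold change 0.42 ± 0.18 SE, 95% interval 0.05 to 0.78). It passed the unadjusted threshold of 0.05 and did not pass after adjustment over all genes (edgeR adjusted p = 0.719). The call on p was lost in 5 of the 19 fits that left out 1 sample. Without TUMOUR STD 10 the log2 fold change was 0.29, without TUMOUR STD 12 it was 0.40, and without CHEMO STD 3, 4 or 5 it was 0.38, 0.35 and 0.36, and in none of these 5 fits did Dbt pass. With replicates 1 and 2 treated as separate samples it was 0.37 and did not pass either. Markers of other cell types were high in some of the samples with low Dbt. Tendon and fibroblast genes (5 genes) summed to 10932 CPM in TUMOUR STD 10 and 11607 in TUMOUR STD 12, against 1938 to 4248 in the other 3, to 9497 in CHEMO STD 1-2 against 1247 to 3573 in the other 5, and to 5835 in CHEMO FO 16, the highest of its group. These 4 samples held the lowest Dbt values of their groups. The other samples did not keep this order. CHEMO STD 6 had a tendon and fibroblast sum of 1376 CPM with a Dbt of 42.0, and CHEMO STD 3 had 3573 with 61.2. CHEMO FO 13 had 4931 with a Dbt of 46.0, and CHEMO FO 18 had 554 with 44.5. In TUMOUR STD 10, keratinocyte genes were also high and 6 Schwann cell genes summed to 465 CPM, against 103 to 145 in the rest of the group. The part of these cell types in the Dbt result was not tested. In CHEMO FO the difference from TUMOUR STD was 0.30 ± 0.17 (95% interval -0.05 to 0.64, edgeR adjusted p = 0.583) and from CHEMO STD -0.12 ± 0.16.

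**Figure D2:**
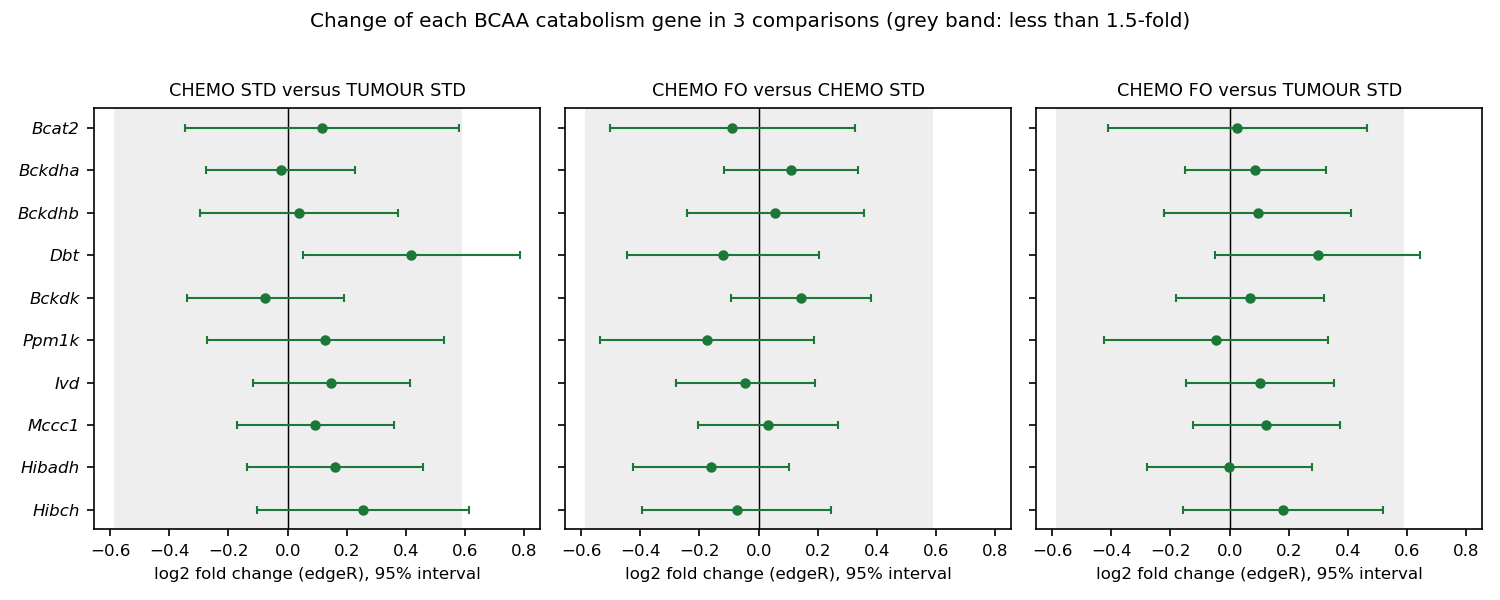
Log2 fold change of each BCAA catabolism gene (points) with its 95% interval (bars) by edgeR in the 3 comparisons; the grey band spans changes under 1.5-fold in either direction. Dbt in CHEMO STD versus TUMOUR STD, at 0.42 (0.05 to 0.78), is the only one whose interval leaves out 0.

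For the enzymes that set the phosphorylation of the complex no change passed p in edgeR with all samples. With limma voom and sample quality weights Bckdk did pass in the comparison of diets, as given further on. The kinase Bckdk was measured at 189, 159, 213, 181 and 223 CPM in TUMOUR STD. It ran from 161 through a median of 177 to 216 in CHEMO STD and from 152 through 205 to 239 in CHEMO FO. Its log2 fold change was -0.08 ± 0.13 in CHEMO STD versus TUMOUR STD and 0.14 ± 0.11 in CHEMO FO versus CHEMO STD (95% interval -0.09 to 0.38). The phosphatase Ppm1k was measured with 50 to 400 counts per sample. It averaged 19.2 ± 4.15 (SD, n = 5), 20.9 ± 3.23 (n = 6) and 18.7 ± 4.75 (n = 8) CPM in the same order of groups. Its log2 fold change was 0.13 ± 0.19 with chemotherapy and -0.17 ± 0.17 with fish oil (95% interval -0.54 to 0.19).

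The ratio of kinase to phosphatase transcripts, which is a ratio of CPM and not of molecules, averaged 10.7 ± 3.69, 8.94 ± 1.69 and 11.4 ± 2.68 in TUMOUR STD, CHEMO STD and CHEMO FO. It ran from 6.63 to 15.9 within TUMOUR STD alone, so the spread inside that group exceeded the differences between the means. The ratio of Dbt to Bckdha was 0.397 ± 0.0922, 0.564 ± 0.184 and 0.460 ± 0.0854. Within CHEMO STD it ran from 0.302 in sample 1-2 to 0.760 in replicate 3. The ratio of Bckdha to Bckdhb was 1.45 ± 0.291, 1.37 ± 0.288 and 1.47 ± 0.337.

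On the leucine route, Ivd (isovaleryl-CoA dehydrogenase) was measured at 163, 147, 144, 169 and 143 CPM in TUMOUR STD. It ran from 135 through a median of 177 to 184 in CHEMO STD and from 116 through 168 to 193 in CHEMO FO. Of the 6 CHEMO STD samples, replicate 6 was the lowest and below every TUMOUR STD sample. The log2 fold change was 0.15 ± 0.13 with chemotherapy (95% interval -0.12 to 0.41) and -0.05 ± 0.11 with fish oil. Mccc1, the subunit of methylcrotonyl-CoA carboxylase that carries biotin, averaged 38.6 ± 2.96 (SD, n = 5), 41.3 ± 5.97 (n = 6) and 42.2 ± 5.39 (n = 8) CPM. CHEMO FO 18 was at 29.8 and the other 7 samples of the group within 41.6 to 46.4.

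On the valine route, Hibch (3-hydroxyisobutyryl-CoA hydrolase) was measured at 34.4, 25.5, 20.8, 30.7 and 21.3 CPM in TUMOUR STD. It ran from 22.6 through a median of 31.0 to 42.6 in CHEMO STD and from 25.8 through 29.1 to 35.2 in CHEMO FO. As with Dbt, CHEMO STD 3, 4 and 5 were the highest of their group and CHEMO STD 1-2 the lowest. Its log2 fold change with chemotherapy was 0.25 ± 0.17, with a 95% interval of -0.10 to 0.61 that still holds a change of 1.5-fold. Hibadh (3-hydroxyisobutyrate dehydrogenase), the next enzyme on that route, averaged 74.1 ± 11.8 (n = 5), 82.8 ± 7.94 (n = 6) and 74.0 ± 13.8 (n = 8) CPM. Its log2 fold change was 0.16 ± 0.14 with chemotherapy and -0.16 ± 0.13 with fish oil.

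Because most of these differences did not pass the test, their intervals say more than their p values. The 95% interval lay inside 1.5-fold in both directions for 8 of the 10 genes in CHEMO STD versus TUMOUR STD, the exceptions being Dbt and Hibch. It did so for 10 of 10 in CHEMO FO versus CHEMO STD, and for 9 of 10 (all but Dbt) in CHEMO FO versus TUMOUR STD. Over all genes tested the shares were 43.0%, 55.8% and 47.8%. The median log2 fold change of the 10 genes was 0.12, with 8 higher and 2 lower, against -0.0016 over all genes. In the comparison of diets it was -0.06 (4 higher, 6 lower) against -0.0060, and in CHEMO FO versus TUMOUR STD 0.09 (8 higher, 2 lower) against 0.0023. The last comparison shares its samples with the first 2.

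CHEMO FO 18 weighed on the diet comparison. On CPM scaled by TMM it was the lowest sample of its group for Bcat2, Bckdha, Bckdhb, Bckdk, Ppm1k, Ivd, Mccc1 and Hibadh. Its Dbt (44.5 CPM) and Hibch (27.7 CPM) lay inside the range of the group. Its TMM factor was 1.21, against 0.934 to 1.00 in the other samples of the group, which lowers its CPM. Counts over library totals alone did not place CHEMO FO 18 lowest for Bckdha, Bckdk or Hibadh. Without it, the median log2 fold change of the 10 genes in CHEMO FO versus CHEMO STD went from -0.06 to 0.03, with 6 higher and 4 lower, and Bcat2 and Ivd changed sign to 0.03 and 0.02. Bckdk went to 0.20 and Bckdhb to 0.16, and neither passed. Against TUMOUR STD, all 10 were then on the higher side, with a median of 0.17, and none passed the unadjusted threshold in edgeR. With limma voom and sample quality weights, Bckdha (0.23) and Bckdk (0.24) passed the unadjusted threshold in CHEMO FO versus CHEMO STD, and neither change reached 1.5-fold. That fit passed 11.4% of all genes in this comparison, so 2 of 10 is read against that share. CHEMO FO 18 also had low summed levels of mitochondrial, fibre, tendon and smooth muscle genes, and their part in its BCAA gene levels was not tested. In bulk muscle, fewer cells of a type and less RNA per cell cannot be told apart.

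**Figure D3:**
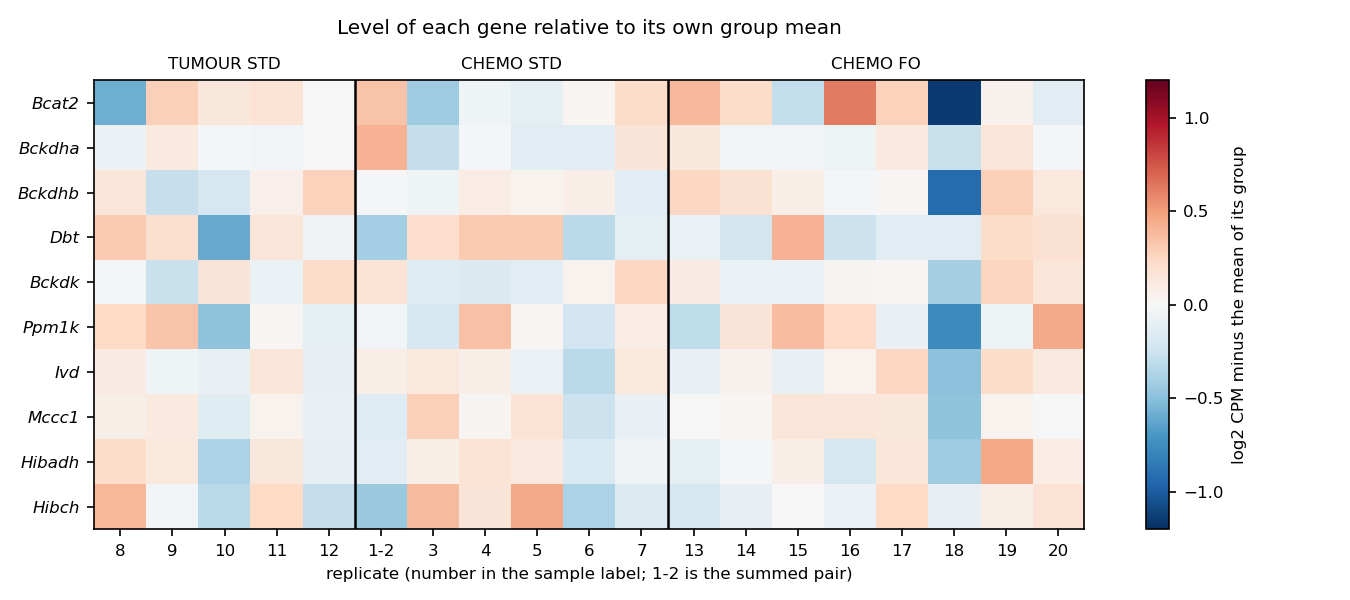
Log2 CPM of each BCAA catabolism gene minus the mean of its own group (colour scale, blue for lower and red for higher) for the 19 samples, with columns ordered by group and replicate. On this scale, which uses TMM library sizes, CHEMO FO 18 is lowest in its group for 8 genes. TUMOUR STD 10 is lowest in its group for 5, namely Dbt, Ppm1k, Mccc1, Hibadh and Hibch.

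The next values are correlations within groups, taken across the 19 samples on log2 CPM centred on each group mean. They describe samples that share library preparation and depth, and carry no test. Of the 45 pairs of the 10 genes, 37 had a Pearson r above 0, with a median of 0.438. Without CHEMO FO 18 only 24 of the 45 were above 0, and the median was 0.0695. The common variation of the pathway was thus smaller outside that library.

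A few pairs kept their relation without it. Dbt went with Hibadh (r = 0.75, Spearman rho = 0.73, and r = 0.81 without CHEMO FO 18) and with Hibch (r = 0.75, rho = 0.73, and r = 0.75 without it). With the 2 samples farthest from the median of Dbt left out instead, r was 0.71 and 0.81. Hibadh and Hibch, neighbours on the valine route, had r = 0.65 (rho = 0.75) and 0.70 without that library. Mccc1 went with Hibch (r = 0.65, rho = 0.79, 0.81 without). Bckdha went with Bcat2 (r = 0.64, rho = 0.60, 0.53 without) and with Bckdk (r = 0.56, rho = 0.64, 0.44 without).

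Relations of the opposite sign joined these groupings. Bcat2 and Dbt had r = -0.37 (rho = -0.56), and -0.65 without CHEMO FO 18. Bckdk had r = -0.34 with Dbt and -0.38 with Hibch, and -0.48 and -0.52 without that library. With Mccc1 it had r = -0.013 (rho = -0.39), and -0.68 without that library, then the lowest r of all pairs. Between subunits of the complex the sign depended on single samples. Bckdha had r = -0.24 with Dbt (-0.32 without CHEMO FO 18 and 0.07 without the 2 samples farthest from the median of Bckdha) and r = 0.32 with Bckdhb (-0.09 and 0.47). In CHEMO STD the contrast can be read from single samples. CHEMO STD 1-2 had the highest Bckdha (131 CPM) and Bcat2 (58.0 CPM) of its group with the lowest Dbt (39.6 CPM) and Hibch (22.6 CPM), and replicate 3 had the lowest Bckdha and Bcat2 with a high Dbt and Hibch.

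The genes whose levels followed the mean of the 10 most closely were Plaat1 (r = 0.93), Cmbl (r = 0.92), Smim19 (r = 0.91), Smco1 (r = 0.90) and Ndufc1 (r = 0.89), over the same 19 samples. Without CHEMO FO 18 their r was 0.70, 0.75, 0.74, 0.58 and 0.70, and they then stood at ranks 84, 41, 59, 425 and 88. The order of these genes changed with that library.

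Further steps of the pathway were followed with 15 of 16 listed genes, as Echs1 was below the filter on low counts. In CHEMO STD versus TUMOUR STD, 6.50% of all genes tested passed p. Of the 15, 12 were on the higher side and 1 passed p. This was Acadsb, the short/branched-chain acyl-CoA dehydrogenase that acts on the isoleucine skeleton. It was measured at 44.8, 43.2, 20.5, 39.3 and 30.9 CPM in TUMOUR STD and between 34.7 and 61.7 in CHEMO STD (log2 fold change 0.45 ± 0.20, edgeR adjusted p = 0.719). Like Dbt it was lowest in TUMOUR STD 10, and without that sample the value was 0.30 and did not pass. The same held without TUMOUR STD 12 or CHEMO STD 4 or 5. None of the 15 passed p in the other comparisons. Bcat1, the cytosolic transaminase, gave -0.67 ± 0.42 with chemotherapy, and Dld, the dehydrogenase shared by the keto acid dehydrogenase complexes, 0.34 ± 0.24.

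Genes of BCAA transport and of amino-group transfer (12 genes) are given next. Slc7a8 and Slc3a2 encode the light and heavy chains of an amino acid exchanger, Slc43a2 a carrier of large neutral amino acids, and Glul glutamine synthetase. In CHEMO FO versus CHEMO STD, 4.51% of all genes tested passed p. Of the 12, 10 were on the higher side and 3 passed p, all higher. These were Slc7a8 (0.69 ± 0.29), Glul (0.72 ± 0.32) and Slc3a2 (0.33 ± 0.15), each with an adjusted p of 0.974 in edgeR. The first 2 also passed the fold threshold, and both thresholds together called 1.66% of all genes.

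None of these 3 held without CHEMO FO 18. Slc7a8 was at 27.4 CPM there and between 6.44 and 14.7 in the other 7 samples of the group, against 5.90 to 10.6 in CHEMO STD. Glul ran from 514 through a median of 787 to 2089 CPM in CHEMO FO, with CHEMO FO 18 the highest and replicate 15 next at 1790, and from 423 to 870 in CHEMO STD. Without CHEMO FO 18 the log2 fold changes were 0.39 for Slc7a8, 0.48 for Glul and 0.20 for Slc3a2. Slc7a8 also lost p without CHEMO STD 3, 6 or 7, Glul without CHEMO STD 3, 5 or 6 or CHEMO FO 15, and Slc3a2 without CHEMO STD 4, 5 or 7 or CHEMO FO 16. Against TUMOUR STD, Slc7a8 was higher in CHEMO FO by 0.81 ± 0.31 (edgeR adjusted p = 0.503). Without CHEMO FO 18 the value was 0.53 and did not pass, and p was lost in 2 of the fits that left out 1 sample. Glul was higher by 0.65 ± 0.34 (edgeR adjusted p = 0.561). It did not pass p with all samples and passed in 6 of the fits that left out 1 sample.

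In CHEMO STD versus TUMOUR STD, where 6.50% of all genes passed p, 8 of the 12 were on the lower side. Of the 12, 1 passed p, Slc43a2, which fell. Its TUMOUR STD values were 70.0, 91.6, 93.6, 81.9 and 92.4 CPM, and those of CHEMO STD ran from 50.9 through 62.4 to 91.2. It was 0.40 ± 0.15 lower on the log2 scale (log2 fold change -0.40, edgeR adjusted p = 0.719), and it passed the unadjusted threshold in every fit that left out 1 sample, with values from -0.51 to -0.33. Of the 6 CHEMO STD samples, 5 lay below 4 of the 5 in TUMOUR STD.

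**Figure D4:**
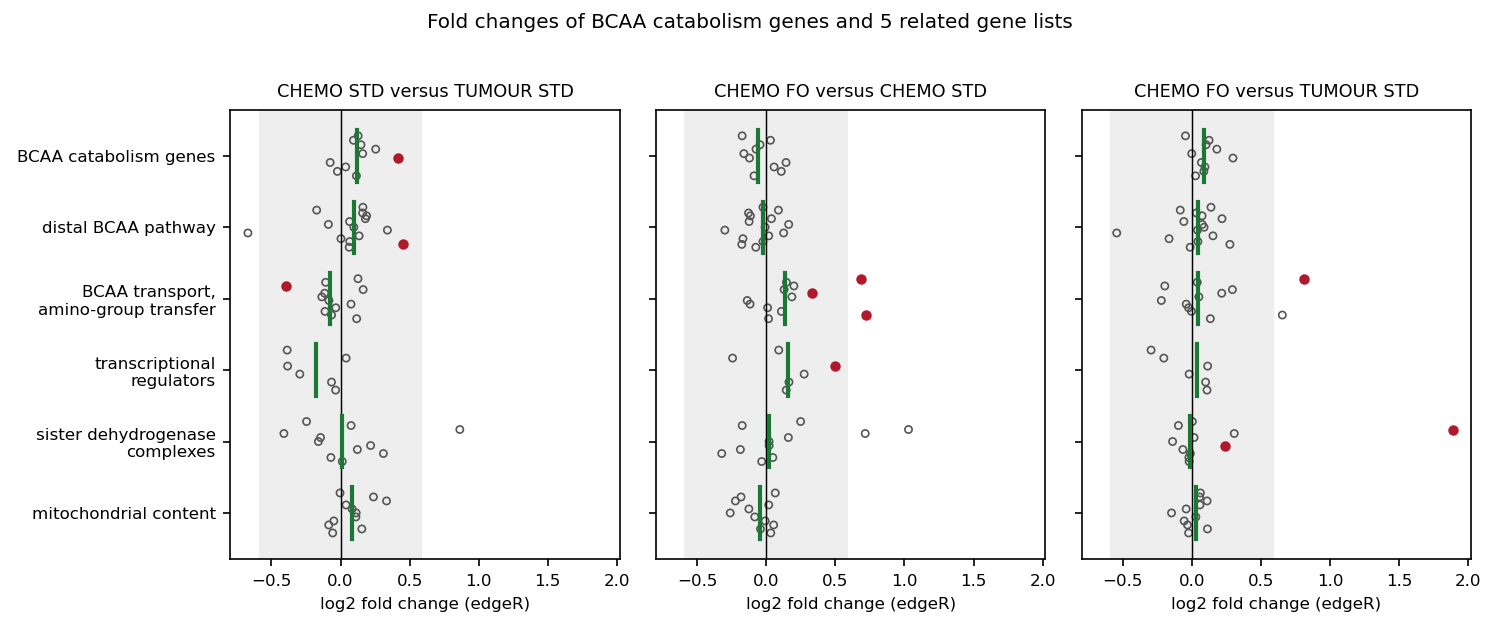
Log2 fold change by edgeR (x axis) of the 10 BCAA catabolism genes and of 5 lists of related genes (rows) in the 3 comparisons. Each circle is a gene, red if its unadjusted p is below 0.05, the green line is the median of the list, and the grey band spans less than 1.5-fold; the 10 genes have medians of 0.12, -0.06 and 0.09.

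Among transcriptional regulators linked to BCAA and oxidative metabolism, 6 of 7 were tested and Mlxipl was not analysed here. On the lower side were 5 of the 6 with chemotherapy, with none past p, and on the higher side 5 of 6 with fish oil, with 1 past p. The shares of all genes past p were 6.50% and 4.51%. Klf15, a known activator of BCAA breakdown genes, averaged 35.2 ± 8.18 (SD, n = 5) CPM in TUMOUR STD and 33.3 ± 8.24 (n = 6) in CHEMO STD, and ran from 21.7 to 62.5 in CHEMO FO, where CHEMO FO 18 was the highest. Ppargc1a, a coactivator of mitochondrial genes, averaged 27.7 ± 7.32, 28.6 ± 5.08 and 24.2 ± 6.54 (n = 8), and CHEMO FO 18 was the lowest of its group at 12.0. Neither passed p in any comparison. Ppard, a nuclear receptor for fatty acids, was at 15.8 to 23.4 CPM in CHEMO FO and 9.79 to 18.9 in CHEMO STD (log2 fold change 0.50 ± 0.18, edgeR adjusted p = 0.974). It passed the unadjusted threshold in every fit that left out 1 sample, while the change stayed under 1.5-fold in the fit with all samples. Ppard in CHEMO FO was close to TUMOUR STD, with 0.11 ± 0.18.

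The pyruvate and 2-oxoglutarate dehydrogenase complexes are built from the same kinds of subunit as the BCAA complex, and the pyruvate complex also has its own kinases and phosphatases. In this list 11 of their 12 listed genes were tested (Ogdh was not analysed here). None passed p with chemotherapy or with fish oil, and 2 did in CHEMO FO versus TUMOUR STD, where 9.04% of all genes did. Pdhx, a structural component, was higher in CHEMO FO than in TUMOUR STD by 0.24 ± 0.11 (edgeR adjusted p = 0.551), which was lost in 12 of the 19 fits that left out 1 sample. It was 0.19 and did not pass without TUMOUR STD 10, and 0.26 and passed without CHEMO FO 18. Pdk4, the pyruvate dehydrogenase kinase that is raised by fasting and fatty acids, was higher by 1.89 ± 0.73 (edgeR adjusted p = 0.503). The medians of both groups were nearly equal, at 111 CPM in CHEMO FO and 112 in TUMOUR STD. CHEMO FO 17 and 18 were at 1047 and 1115 CPM, and the other 6 samples of the group lay between 58.3 and 184, against 24.4 to 135 in TUMOUR STD. Without CHEMO FO 18 the value was 1.36 and without replicate 17 it was 1.42, and both still passed the unadjusted threshold. Each of these fits kept the other of the 2 high samples, and no fit left out both. The largest edgeR p over the fits that left out 1 sample was 0.0497.

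**Figure D5:**
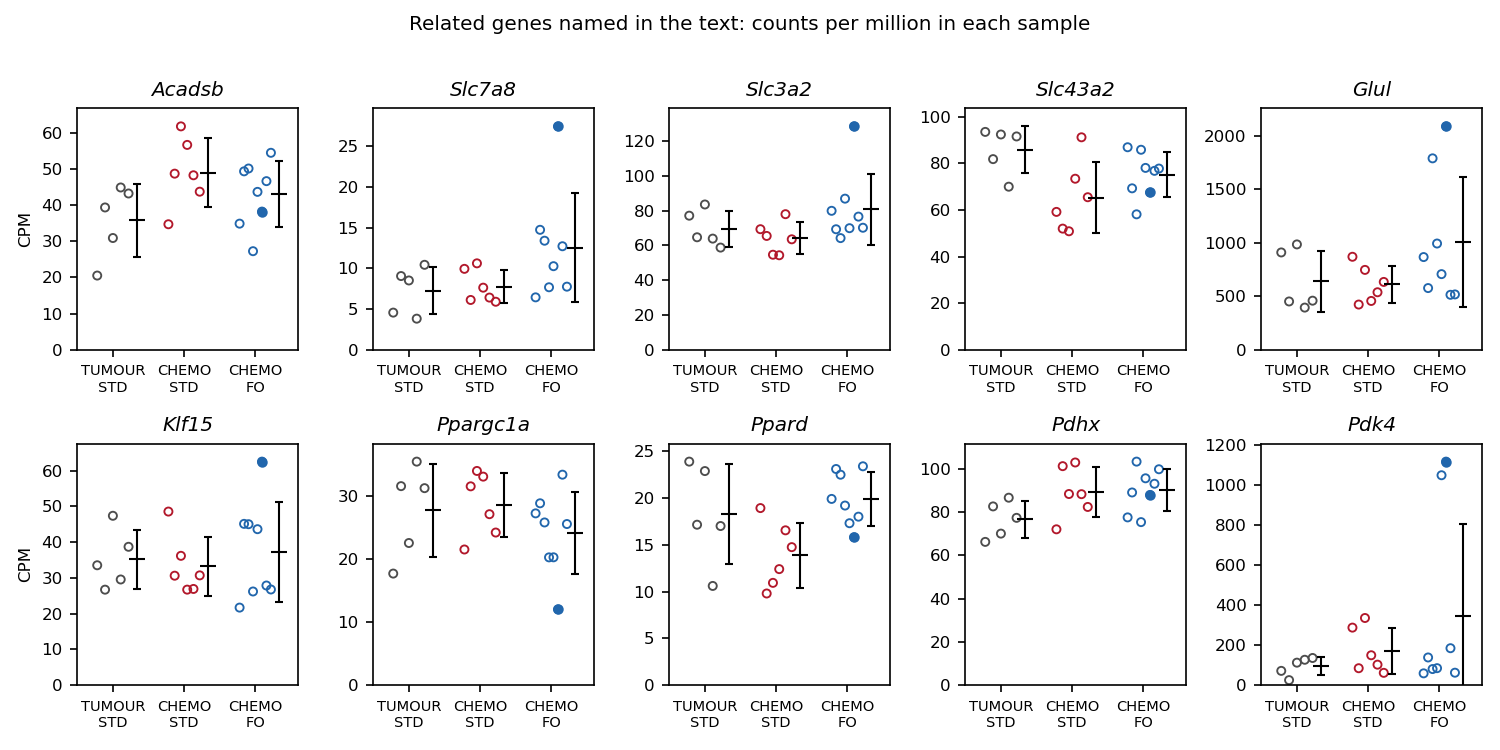
CPM (y axis) of 10 related genes in every sample of the 3 groups (x axis), with the mean and SD beside the points (bars stop at 0) and CHEMO FO 18 filled. CHEMO FO 18 is the highest sample for Slc7a8 (27.4), Slc3a2 (129), Glul (2089) and Pdk4 (1115).

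Of mitochondrial genes outside BCAA breakdown, none of the 11 listed passed p in any comparison, with medians of 0.08, -0.04 and 0.03. Fibre markers were less even. Over all genes, 6.50% passed p in CHEMO STD versus TUMOUR STD and 9.04% in CHEMO FO versus TUMOUR STD. All 10 slow fibre genes were on the lower side in CHEMO STD versus TUMOUR STD (median -0.36, 3 passed p) and in CHEMO FO versus TUMOUR STD (median -0.31, 2 passed p). In the latter none passed without any 1 of TUMOUR STD 9, 10 or 12 or CHEMO FO 15 or 17, and 5 passed without CHEMO FO 19, and in the former 6 passed without CHEMO STD 5. These genes summed to 8520 to 16837 CPM in TUMOUR STD, 6966 to 11602 in CHEMO STD and 5792 to 16409 in CHEMO FO. The 7 fast fibre genes had medians of 0.08, -0.06 and 0.04, and Myh1 and Atp2a1 were not analysed here. None of the 7 passed p with all samples.

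Genes of other cell types also differed between the groups. Their counts past p stand beside 6.50% of all genes in CHEMO STD versus TUMOUR STD. The share was 4.51% in CHEMO FO versus CHEMO STD and 9.04% in CHEMO FO versus TUMOUR STD. Smooth muscle genes were lower in both chemotherapy groups than in TUMOUR STD, with 3 of 4 tested genes past p in CHEMO STD and 4 of 4 in CHEMO FO, and summed to 160 to 250 CPM in TUMOUR STD, 75.8 to 150 in CHEMO STD and 62.8 to 177 in CHEMO FO. Tendon and fibroblast genes passed p on the lower side in 2 of 5 and 3 of 5. Without TUMOUR STD 10 these counts were 0 and 1, without TUMOUR STD 12 they were 0 and 0, and without CHEMO STD 1-2 they were 5 and 3. Without any 1 of CHEMO STD 3 to 7 the first count was 1. Endothelial genes passed p on the lower side in 2 of 4 in both comparisons. The first of these counts was 0 without TUMOUR STD 10 and 1 without TUMOUR STD 8 or 9 or CHEMO STD 3 or 4, and the second was 1 without TUMOUR STD 8. Of 5 leukocyte genes tested, 2 passed p on the higher side in CHEMO STD versus TUMOUR STD, and the same genes, Ptprc and Lyz2, passed on the lower side in CHEMO FO versus CHEMO STD. Leukocyte genes (8 genes) summed to 361 CPM in CHEMO STD 7 and 229 in CHEMO STD 1-2, against 134 to 168 in the other 4. Without CHEMO STD 7 none passed in the first comparison, and 2 still passed in the second. Of 5 Schwann cell genes tested, 4 passed p on the lower side with fish oil. Their list summed to 452 CPM in CHEMO STD 1-2 and 277 in CHEMO STD 7, against 99.1 to 138 in the other 4 and 83.9 to 151 in CHEMO FO, and 0 passed without CHEMO STD 1-2 and 2 without CHEMO STD 7. Of 7 adipocyte genes none passed p in any comparison with all samples. Keratinocyte genes summed to 2.45 to 8.07 CPM in CHEMO STD, so TUMOUR STD 10 and CHEMO FO 16 stood alone in this list. The part of these cell types and of fibre type in the levels of the 10 BCAA genes was not tested.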

How the data were processed

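Total RNA, depleted of ribosomal RNA and prepared as stranded libraries, was sequenced from archived gastrocnemius muscle. The authors deposited raw counts per gene. Per the study's methods and the submitters' processing notes, CASAVA 1.9, FastQC 0.11.4, Trim Galore 0.4.1, TopHat2 2.0.10 and Bowtie2 were used with the Rnor 6 build and an Ensembl 104 annotation in Partek Flow. The treatment of strand and of reads with several matches at counting is not given in the sources used here. Genes that overlap or have close copies carry that uncertainty.

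From the deposited counts, rows without a gene name (388 rows, 0.102% to 0.272% of a library) were left out, and replicates 1 and 2 of CHEMO STD were summed. Counts of Myh4 in 2 libraries had been rounded in the deposited table. Genes were kept by filterByExpr (minimum count 10, minimum total 15) and scaled by TMM. The 3 groups were fitted together with edgeR 4.0.16 (quasi-likelihood test, R 4.3.3), and p was adjusted by Benjamini-Hochberg over all genes tested. Standard errors were taken as the log2 fold change over the square root of F, and intervals use 22.6 degrees of freedom. CPM are scaled on TMM library sizes, and levels are not compared between genes since no gene lengths were used. Calls needed both an unadjusted p under 0.05 and a difference of 1.5-fold or more, and passing p refers to the unadjusted threshold. DESeq2 1.42.0, limma 3.58.1 (voom), other scalings, filters and thresholds, and fits without each sample were alternatives. The statistics were tested on simulated data.

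Named genes were the 10 members, the genes of the related lists with p below 0.05 in any comparison, Klf15, Ppargc1a and Pdk4, and the 5 genes closest to the members' mean. Bcat1, Dld, Ptprc and Lyz2 were named after their values were seen. The members and lists were chosen with earlier results of these data known. Promoter sequences came from RefSeq (GRCr8).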

Additional observations from a re-analysis of the deposited data

Results flagged for a closer look

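Single samples stood far from the rest of their group for 4 genes, all in CHEMO FO 18. Each was at a distance from its nearest neighbour that exceeded Dixon's critical value for a group of 8. Bckdhb was at 39.1 CPM there against 73.0 to 90.8 in the other 7 samples, and Mccc1 at 29.8 CPM against 41.6 to 46.4. The exchanger chains Slc7a8 and Slc3a2 were on the high side, at 27.4 CPM against 6.44 to 14.7 and at 129 CPM against 64.2 to 86.9. These were 4 of 60 groups of values examined over 20 genes, and chance alone gives about 1 in 20 for genes chosen independently of their values. That rate does not hold for Slc7a8, Slc3a2 and the other related genes that were named because they passed p in these data. All 4 values also came from 1 library and are not independent, so 4 of 60 cannot be set against that rate. The same library had low mitochondrial, fibre and tendon gene sums, whose part in these values was not tested.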

How the results depend on the processing

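No paired analysis was possible because each replicate number occurs in only 1 group. The first comparison is that of CHEMO STD with TUMOUR STD, the second that of the diets under chemotherapy, and the third that of CHEMO FO with TUMOUR STD. The called genes, 279, 195 and 422, became 971, 722 and 1116 without the filter on low counts, 762, 528 and 1059 on p alone, and 64, 58 and 112 at 2-fold. Leaving out 1 sample gave 161 (without TUMOUR STD 10) to 603 (without CHEMO STD 1-2), 153 (without CHEMO STD 7) to 266 (without CHEMO STD 1-2), and 273 (without CHEMO FO 18) to 584 (without TUMOUR STD 11). The members with p below 0.05 went from 1 to 0 in the first comparison with replicates 1 and 2 separate and from 0 to 2 in the second with voom, where 1339 of all genes passed p against 528, and ranged over 0 to 1, 0 to 0 and 0 to 1 with 1 sample left out.

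Signs turned for values near 0, and the cause was not tested. In the first comparison Bckdha was 0.0456 with replicates separate. In the second, voom gave Bcat2 0.0487 and Ivd 0.0238, and library totals gave Mccc1 -0.0044. In the third, Hibadh (-0.0015) was 0.0093 with DESeq2, 0.0089 with RLE size factors, 0.00099 without the filter and 0.0069 with replicates separate. With 1 sample left out, ranges in the first comparison were -0.11 to 0.0329 for Bckdha, -0.0271 to 0.11 for Bckdhb and 0.29 to 0.51 for Dbt. In the second they were -0.18 to 0.0306 for Bcat2, -0.0954 to 0.0196 for Ivd, -0.0096 to 0.10 for Mccc1 and -0.16 to 0.0223 for Hibch. In the third they were -0.0817 to 0.16 for Bcat2, -0.16 to 0.0633 for Ppm1k, -0.0906 to 0.0672 for Hibadh and 0.17 to 0.39 for Dbt. Apart from fits that left out a sample, 229 of the values of single genes kept direction and side of the threshold, 8 turned, 2 came past it and 1 lost it. Among the 10 members depth was lowest for Ppm1k, with as few as 50 counts, and among the other named pathway genes Slc7a8 had as few as 20 and Ppard 32.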
